A study of Mus musculus with 20 samples.

Results

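The collagen chain genes are the genes that encode the alpha chains of the collagen proteins. All genes whose symbol in the deposited count table had the form of Col, a type number, the letter a and a chain number were taken, which gave 41 of 33495 genes. Of these, 39 had at least 10 counts in at least 3 of the 20 libraries and were kept. Col5a3 and Col28a1 were left out, with at most 8 and 20 counts in any library. Nearest to the limit were Col28a1, with 1 library at 10 counts or more, and Col19a1, which was kept with 5. The rule used the level over all libraries and no comparison between groups.

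The study asked what deletion of Kmt2d, which encodes a histone H3 lysine methyltransferase, does to gene expression in the embryonic mouse heart. RNA was sequenced from hearts of C57BL/6 embryos in which Cre recombinase removed floxed Kmt2d in a chosen cell population. Mesp1Cre acts in the early mesoderm that gives rise to most heart cells, and whole hearts were taken at E9.0 from 4 mutants and 4 controls. Tnnt2::Cre acts in cardiomyocytes, and whole hearts were taken at E11.5 from 3 mutants and 3 controls. Mef2cAHF::Cre acts in precursors of the anterior heart field, and the right ventricle and outflow tract were taken at E11.5 in 3 libraries labelled mutant and 3 labelled control. Mutants carried 2 floxed alleles (Cre; Kmt2d fl/fl; mTmG/+). Controls (Cre; Kmt2d fl/+; mTmG/+) had Cre too but only 1 floxed allele, so where Cre was active they lost 1 copy of Kmt2d. All embryos carried 1 copy of the mTmG reporter. The tissue was not sorted, and cells without Cre activity kept Kmt2d. The labels do not say whether a library holds 1 embryo or a pool, nor which litter it came from, so p-values measure the spread between these libraries.

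For Mef2cAHF::Cre the genotype has conflicting readings. The sample titles and library names give the genotypes used here as labelled mutant and labelled control, whereas the names of the count columns call the same libraries the reverse. Kmt2d, listed as Mll2, had a mean of 185 CPM (counts scaled to library size) in the labelled mutants and 149 in the labelled controls, a log2 difference of 0.32 (adjusted p = 0.036), which goes against the labels. It was lower in the mutants of the other lines, by a log2 difference of -0.21 for Mesp1Cre and -0.35 for Tnnt2::Cre, neither past the threshold (adjusted p = 0.076 and 0.33). Every Mef2cAHF::Cre result is therefore given under both readings, and a statement that a gene was higher in the library labelled mutant reads as lower in the mutant under the column names.

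The libraries held 21727258 to 45341870 counts. Collagen chain genes took a small share of them, from 0.0998% to 0.118% in the Mesp1Cre hearts, 0.119% to 0.245% in the Tnnt2::Cre hearts and 0.212% to 0.340% in the Mef2cAHF::Cre tissue. Cardiomyocyte markers were detected in every group, with the summed level of 8 genes between 7668 and 13681 CPM. Markers of notochord and foregut, liver and skeletal muscle stayed at a summed level of at most 11.7 CPM in any library. Sex was not balanced. By Y-linked genes, 4 of 4 Mesp1Cre mutant libraries and 2 of 4 controls were male. The number was 1 of 3 mutants and 2 of 3 controls for Tnnt2::Cre, and 0 of 3 labelled mutants and 1 of 3 labelled controls for Mef2cAHF::Cre.

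Collagen molecules are helices wound from alpha chains that share a repeat with glycine at regular positions. Fibrillar collagens such as types I, III and V form the cross-striated fibrils that carry load in connective tissue. FACIT collagens sit on the surface of those fibrils, type IV collagen builds the sheet of the basement membrane, and type VI forms beaded filaments around cells. Other members span the cell membrane or, as multiplexins, join the basement membrane to the matrix beneath. In the developing heart, collagens are laid down in the basement membranes of myocardium and endocardium, in the cardiac jelly and endocardial cushions that become the valves, and later in the epicardium and interstitium. The 39 genes fell into 10 fibrillar genes, 9 FACIT genes, 6 basement membrane genes, 4 network and anchoring genes, 4 beaded filament genes, 4 membrane genes and 2 multiplexin genes.

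**Figure D1:**
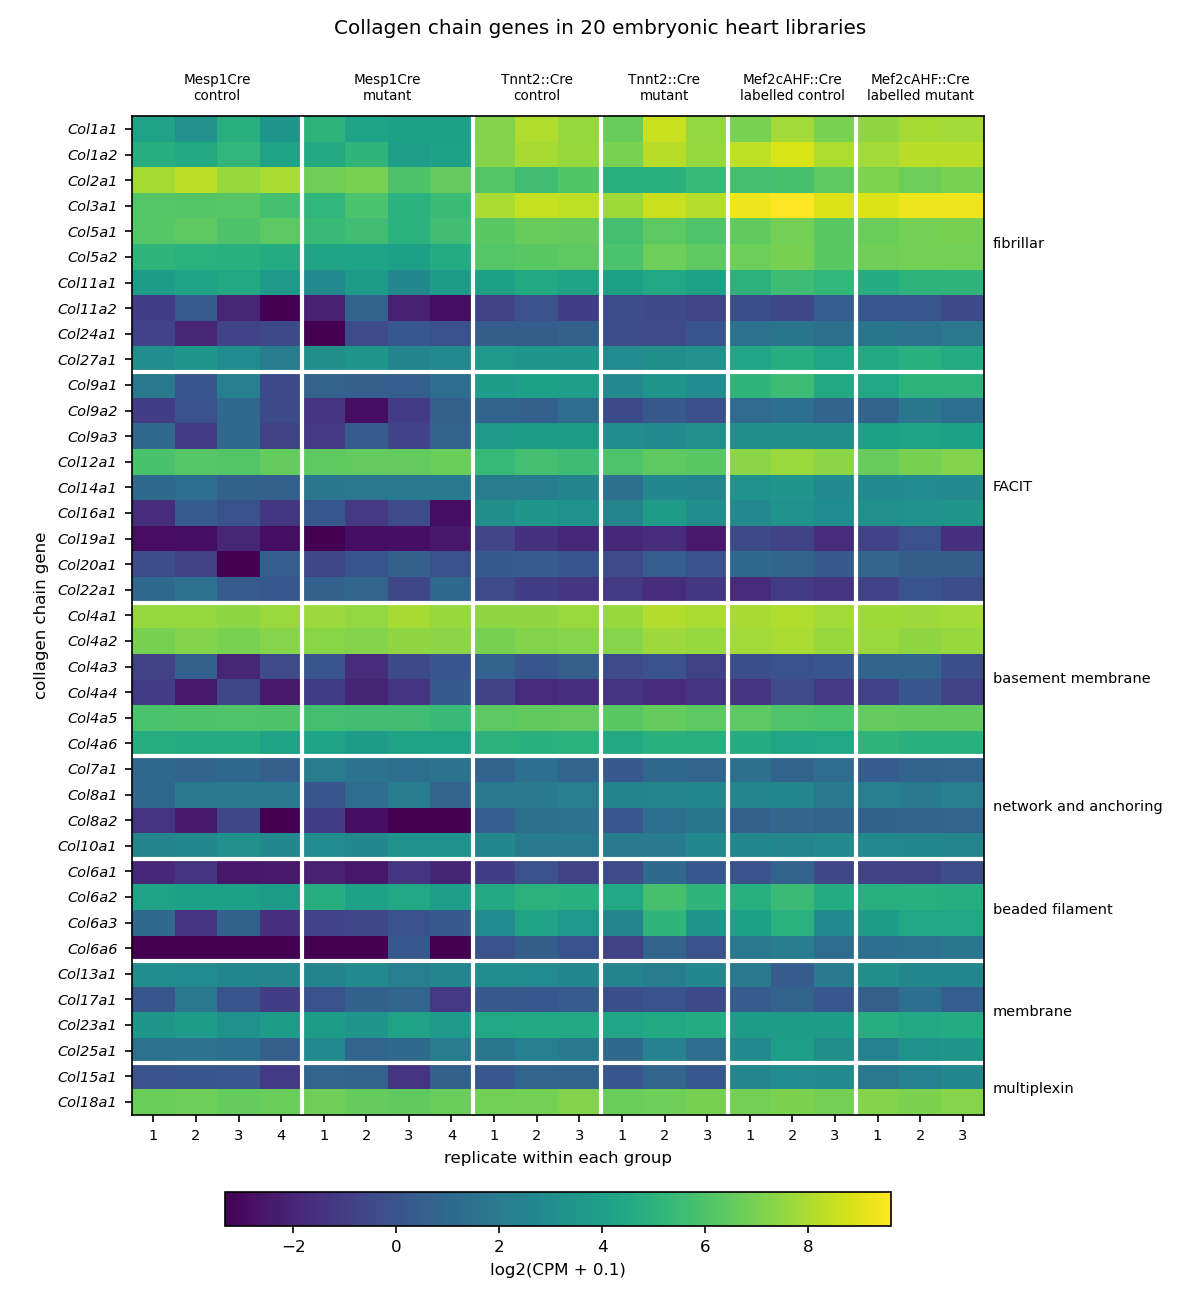
The heat map shows log2(CPM + 0.1) of the 39 collagen chain genes (rows, by class) in the 20 libraries (columns, by group and replicate). Col2a1 is brightest in the 4 Mesp1Cre controls (194 to 321 CPM), and Col1a1, Col1a2 and Col3a1 are brighter in every E11.5 library than in every E9.0 library.

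At E9.0 the most abundant chain per length was that of type II collagen. Levels between genes are compared here in FPKM, the count of fragments scaled to transcript length and library size. Col2a1, whose product makes the fibrils of cartilage and is also made in the embryo outside cartilage, reached 36.1 ± 7.10 FPKM (SD, n = 4) in the Mesp1Cre controls. Next in that group came the basement membrane chains Col4a1 with 26.4 ± 1.63 and Col4a2 with 20.3 ± 2.17 FPKM, and then Col18a1, the multiplexin chain that holds endostatin, with 13.8 ± 0.526 FPKM. The ranges of these 4 genes did not overlap in that group, from 29.0 to 45.7 for Col2a1, 24.8 to 28.7 for Col4a1, 17.6 to 22.4 for Col4a2 and 13.2 to 14.4 FPKM for Col18a1. The type I chains Col1a1 and Col1a2 were low, with 2.39 ± 1.28 and 2.04 ± 0.657 FPKM, less than their spread apart.

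At E11.5 the order had turned. In the Tnnt2::Cre controls, Col3a1, the chain of type III collagen that accompanies type I in vessel walls and valves, led with 34.0 ± 5.66 FPKM (SD, n = 3). Col1a1 followed with 27.4 ± 8.65, Col4a1 with 24.6 ± 0.942 and Col4a2 with 19.3 ± 1.32 FPKM, and Col1a1 overlapped both of its neighbours in that order. Col2a1 came ninth with 8.57 ± 1.49 FPKM. In the right ventricle and outflow tract of the Mef2cAHF::Cre labelled controls Col3a1 reached 80.7 ± 23.5 FPKM. In the labelled mutants of that line it reached 66.9 ± 9.20 FPKM. As a share of the summed FPKM of all collagen chain genes, the fibrillar class took 39.3% to 43.9% in the E9.0 controls, 47.7% to 54.6% in the E11.5 Tnnt2::Cre controls and 51.7% to 57.6% in the Mef2cAHF::Cre libraries. The basement membrane class took 36.5% to 41.3%, 26.2% to 31.1% and 23.4% to 28.6% of it.

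The basement membrane chains come in neighbouring pairs of genes that are read in opposite directions. In the mm9 coordinates of the table, Col4a1 lies on the minus strand at chr8:11198423-11312804 and Col4a2 on the plus strand at chr8:11312805-11449287, so that their starts are 1 base apart there. In the gene annotation Col4a1 reaches to base 11312826, so the annotated genes overlap at their starts. Col4a3 and Col4a4 start 72 bases apart on chromosome 1, and Col4a5 and Col4a6 start 1309 bases apart on chromosome X. The ratio of Col4a1 to Col4a2 in FPKM stayed between 1.02 and 1.46 in all 20 libraries, although the level of Col4a1 ranged from 171 to 279 CPM. That of Col4a5 to Col4a6 stayed between 2.78 and 4.48.

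The windows of 250 bases before to 50 after the start of 4 chains follow, from RefSeq on GRCm38.p6. Col4a1 and Col4a2 are shown because their starts lie close together, and Col1a2 and Col3a1 because both chains rose between stages and belong to the main fibrils of the heart. Capitals mark the CAAT box (CCAAT, or ATTGG when it lies on the other strand), the GC box (GGGCGG, read from the other strand as CCGCCC) and the TATA box (TATAAA). The window of Col4a1 (chr8:11312777-11313076, minus strand) and that of Col4a2 (chr8:11312555-11312854, plus strand) share 78 bases. Those of Col1a2 (chr6:4505368-4505667) and Col3a1 (chr1:45311288-45311587) are on the plus strand.
Col4a1: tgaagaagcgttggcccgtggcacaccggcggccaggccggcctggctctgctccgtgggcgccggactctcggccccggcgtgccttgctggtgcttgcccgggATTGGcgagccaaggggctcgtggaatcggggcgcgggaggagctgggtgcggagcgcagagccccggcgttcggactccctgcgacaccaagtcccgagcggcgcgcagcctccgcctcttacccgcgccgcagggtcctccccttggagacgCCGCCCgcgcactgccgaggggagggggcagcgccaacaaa
Col4a2: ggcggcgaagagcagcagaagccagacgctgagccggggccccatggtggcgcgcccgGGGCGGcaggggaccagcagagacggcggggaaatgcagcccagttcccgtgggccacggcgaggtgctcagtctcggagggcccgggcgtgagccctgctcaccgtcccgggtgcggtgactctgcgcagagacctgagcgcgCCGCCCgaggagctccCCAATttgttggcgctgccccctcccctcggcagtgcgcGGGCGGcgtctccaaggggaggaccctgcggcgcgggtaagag
Col1a2: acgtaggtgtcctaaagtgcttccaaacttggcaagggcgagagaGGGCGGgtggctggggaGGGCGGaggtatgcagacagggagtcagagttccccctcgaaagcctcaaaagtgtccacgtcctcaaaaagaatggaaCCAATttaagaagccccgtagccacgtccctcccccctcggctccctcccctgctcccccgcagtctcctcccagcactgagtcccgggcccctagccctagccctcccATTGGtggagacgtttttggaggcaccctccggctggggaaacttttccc
Col3a1: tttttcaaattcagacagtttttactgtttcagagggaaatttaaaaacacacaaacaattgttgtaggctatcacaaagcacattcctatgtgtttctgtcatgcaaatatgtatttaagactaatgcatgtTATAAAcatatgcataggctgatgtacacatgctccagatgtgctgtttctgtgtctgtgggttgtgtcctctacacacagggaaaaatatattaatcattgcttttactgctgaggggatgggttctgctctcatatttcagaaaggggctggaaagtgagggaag
The Col4a1 window held 1 CCAAT and 1 GGGCGG, the Col4a2 window held 1 CCAAT and 3 GGGCGG, and the Col1a2 window held 2 of each. The Col3a1 window held 1 TATAAA and neither of the other motifs. Windows were present for 31 of the 39 genes, 34 windows in all. GGGCGG was found in 58.8% of these and in 35.7% of all 32851 windows, CCAAT in 32.4% against 37.4%, and TATAAA in 14.7% against 13.6%. These matches are a description of letters and not of binding.

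Several fibrillar collagen genes were lower in E9.0 hearts with Kmt2d deleted in the early mesoderm. In the Mesp1Cre line 33 of the 39 genes passed the filter on low counts. Of these, edgeR called 5 lower in the mutants at an adjusted p under 0.05 and none higher, while DESeq2 called 8, with Col4a6 and Col11a1 also lower and Col14a1 higher. By edgeR the share called lower was 15.2%, against 5.29% of all 15883 genes tested, and 6.17% of all genes were called higher. The share of all genes called by DESeq2 is not given here. The members called were the fibrillar chains Col2a1, Col5a1, Col5a2 and Col3a1 and the basement membrane chain Col4a5. By class, 4 of 9 fibrillar genes tested were lower, 1 of 5 basement membrane genes was lower, and none of the 8 FACIT, 4 membrane, 3 network and anchoring, 2 beaded filament and 2 multiplexin genes passed the threshold. The median log2 difference was -0.62 over the fibrillar genes and -0.17 over all 33, against -0.0018 over all genes tested. At an unadjusted p under 0.05 there were 11 of the 33, against 26.9% of all genes. In unsorted hearts, fewer cells of a type and less RNA per cell cannot be told apart.

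Col2a1 fell most. Its levels were 235, 321, 194 and 252 CPM in the controls and 111, 127, 64.5 and 89.5 CPM in the mutants, with no overlap between the groups. The log2 difference was -1.34 ± 0.19 (SE, adjusted p = 0.00079), a 2.52-fold lower level. Col5a1, which encodes a chain of type V collagen that is built into type I fibrils and limits their width, had 75.0, 84.9, 64.6 and 81.0 CPM in the controls and 41.6, 49.2, 29.9 and 49.2 CPM in the mutants. Every mutant lay below every control here too, and the log2 difference was -0.83 ± 0.15 (adjusted p = 0.0041). Both calls stood in all 11 alternative fits and in all 8 fits that left out 1 library.

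The other 3 calls were closer to the threshold. Col5a2, the partner chain of Col5a1, had 35.6, 30.1, 29.7 and 24.5 CPM in the controls and 18.9, 18.2, 15.4 and 24.5 CPM in the mutants (log2 difference -0.62 ± 0.16, adjusted p = 0.024). The groups touched at mutant replicate 4, which equalled the lowest control to 3 digits. Col3a1 had 73.3, 69.6, 76.9 and 54.0 CPM in the controls and 36.8, 62.4, 30.3 and 45.2 CPM in the mutants (log2 difference -0.63 ± 0.19, adjusted p = 0.0495). Here mutant replicate 2 lay above the lowest control. Col4a5, a type IV chain encoded on the X chromosome, fell from 61.3, 63.5, 65.7 and 63.8 CPM in the controls to 52.1, 50.4, 50.4 and 43.4 CPM in the mutants without overlap (log2 difference -0.36 ± 0.09, adjusted p = 0.025). Since all mutants were male and 2 of the controls were not, the fit was repeated with sex as a covariate. Col2a1 and Col5a1 were then the only members called. The other 3 kept their direction. All 3 calls were also lost with limma on either FPKM scale, those of Col3a1 and Col4a5 with the replicate number as a block, and that of Col3a1 with a block for the code that controls and mutants share in their library names. Leaving out 1 library ended the call of Col5a2 for control replicates 1 and 2 and mutant replicates 1 and 3. It ended that of Col4a5 for control replicates 2, 3 and 4 and mutant replicates 3 and 4, and that of Col3a1 for control replicates 1, 2 and 3 and mutant replicates 1, 3 and 4.

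The other fibrillar chains tested did not pass the threshold in the edgeR fit of this line alone with all its libraries. Col1a1 had 17.0, 9.03, 27.7 and 11.2 CPM in the controls and 33.2, 17.8, 15.4 and 16.3 CPM in the mutants, a log2 difference of 0.36 ± 0.32 (adjusted p = 0.52). Col1a2 differed by -0.17 ± 0.26 (adjusted p = 0.72). Col11a1, a chain of type XI collagen that forms mixed fibrils with type II, had 13.8, 18.1, 21.9 and 12.8 CPM in the controls and 7.09, 13.2, 6.48 and 12.9 CPM in the mutants, and its log2 difference of -0.73 ± 0.26 did not pass the threshold (adjusted p = 0.085). These groups overlapped in mutant replicates 2 and 4. Col11a1 was called lower by DESeq2, by edgeR in the fit of all 6 groups and by edgeR without mutant replicate 2. Col24a1 and Col27a1, both minor fibrillar chains, had log2 differences of 0.49 ± 0.82 and 0.06 ± 0.28.

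Among the basement membrane chains the pairs differed in direction. Col4a1 and Col4a2 had log2 differences of 0.16 ± 0.09 and 0.24 ± 0.09 (adjusted p = 0.30 and 0.12), and Col4a2 passed the threshold as higher in 2 of 11 alternative fits. Col4a6, the partner of Col4a5, had 26.2, 24.7, 25.8 and 17.4 CPM in the controls and 17.7, 13.3, 17.1 and 17.8 CPM in the mutants (-0.49 ± 0.15, adjusted p = 0.058). As a share of collagen FPKM, the type IV class therefore took 44.1% to 56.9% in the mutants, above the 36.5% to 41.3% of the controls, and the fibrillar class took 18.3% to 32.5%, below the 39.3% to 43.9% of the controls. The share of Col2a1 alone was 7.62% to 14.6% in the mutants and 19.8% to 27.8% in the controls. Shares of a sum are tied to each other and were not tested.

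Outside the fibrillar and type IV classes edgeR called no gene. Col14a1 and Col7a1, a FACIT chain of type I fibrils and the chain of the anchoring fibrils beneath epithelia, were higher in every mutant than in every control, with log2 differences of 0.98 ± 0.31 and 0.87 ± 0.32 (adjusted p = 0.056 and 0.10). Col14a1 was called higher by DESeq2 (adjusted p = 0.015), by limma on either FPKM scale, with 10 counts required in every library and in the fit of all 6 groups, and Col7a1 in the last of these. Col18a1 differed by -0.04 ± 0.09, Col8a1, a network chain of vessels, by -0.53 ± 0.43, Col15a1 by 0.66 ± 0.58, Col6a2 by 0.34 ± 0.18 and Col6a3 by -0.43 ± 0.68, none past the threshold. In all, 5 of the 33 genes had groups without overlap, 2 higher and 3 lower in the mutants, which is 6.06% and 9.09% of them, against 8.39% and 9.69% of all genes tested. The 6 genes below the filter were Col4a4, Col6a1, Col6a6, Col8a2, Col11a2 and Col19a1. Of the marker lists, erythroid genes were lower in the Mesp1Cre mutants in 5 of 8 (summed level 1893 to 7368 CPM against 5359 to 17714 CPM), 2 of 7 endothelial genes were higher (523 to 613 CPM against 426 to 504 CPM), and 1 of 3 macrophage genes tested was lower (3.80 to 6.93 CPM against 9.81 to 18.6 CPM), 1 of 4 smooth muscle genes was lower (2253 to 2673 CPM against 2591 to 3294 CPM), and none of the cushion mesenchyme and epicardial genes was called (52.5 to 81.7 against 51.0 to 92.0 CPM, and 23.4 to 36.7 against 22.6 to 67.9 CPM). The part of these cells in the collagen values was not tested. The summed chondrogenic markers, which type II collagen accompanies in cartilage, lay at 0.295 to 1.44 CPM in the mutants and 0.554 to 1.69 CPM in the controls. The only such marker tested, Acan, the gene of the cartilage proteoglycan aggrecan, had a log2 difference of -1.43 ± 0.69 (adjusted p = 0.20).

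**Figure D2:**
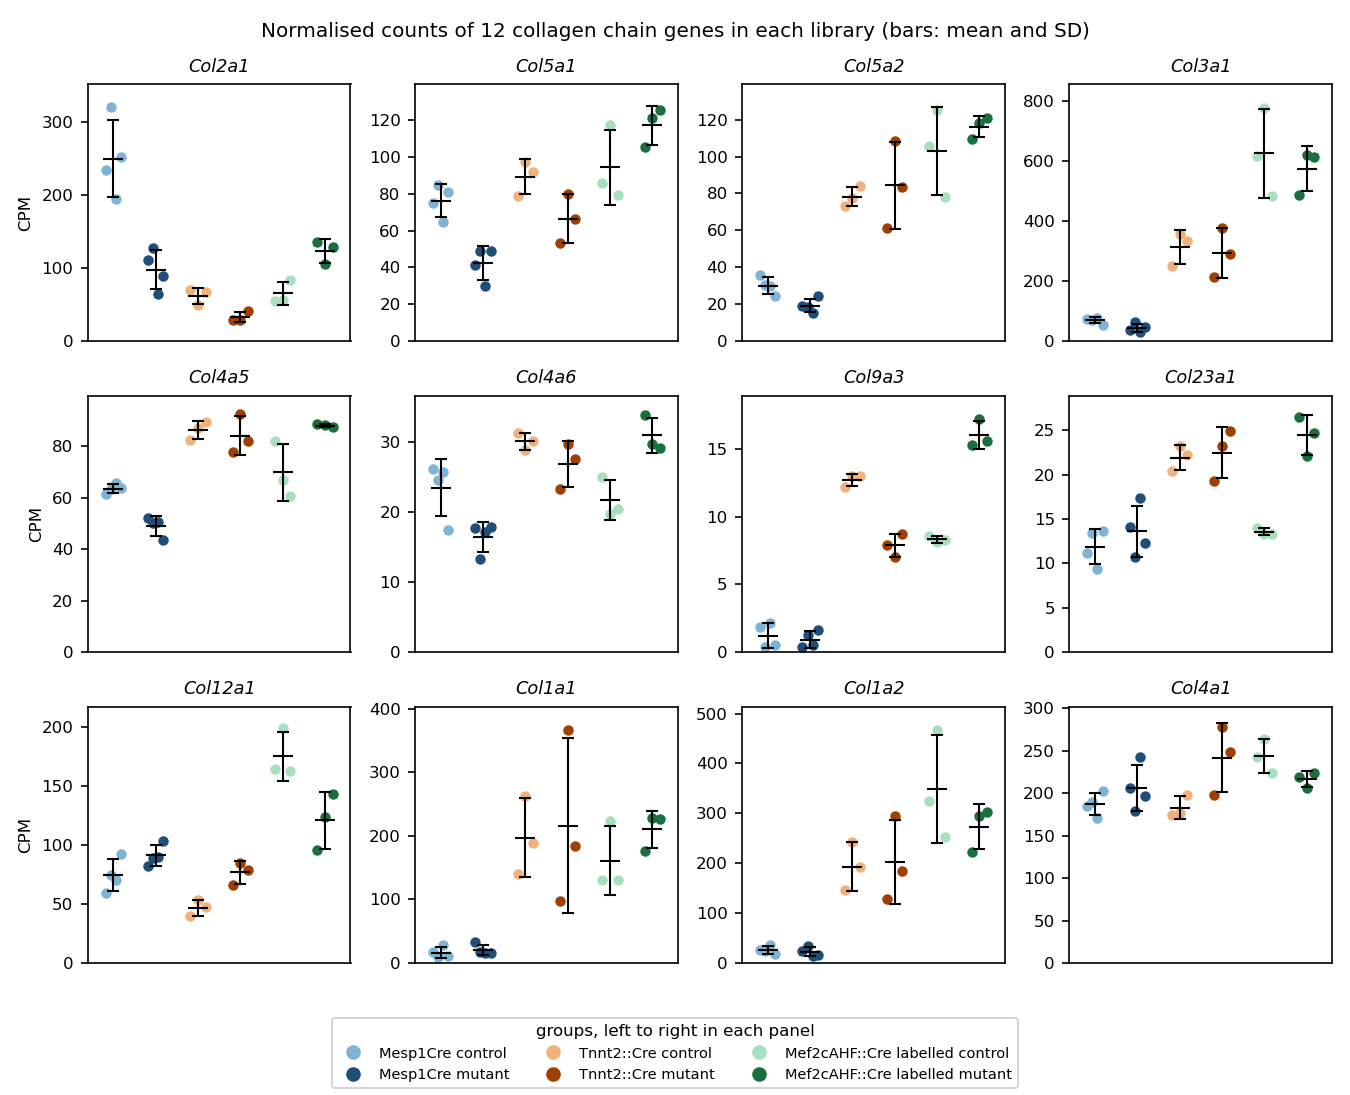
Each panel shows the CPM of a collagen chain gene in every library (points), with the mean and SD of each group (bars); the y axes are linear and start at 0. Col2a1 and Col5a1 of the 4 Mesp1Cre mutants lie below all 4 controls, Col9a3 and Col23a1 of the 3 libraries labelled mutant for Mef2cAHF::Cre lie above the 3 labelled control, and Col1a1 in the Tnnt2::Cre mutants spans 96.9 to 366 CPM.

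Collagen chains are modified before they fold, and 6 of 14 genes tested for that step were higher in the same mutant hearts. Prolyl 4-hydroxylase, made of a catalytic subunit (P4ha1, P4ha2 or P4ha3) and P4hb, hydroxylates prolines so that the helix is stable at body temperature, and lysyl hydroxylases such as Plod2 prepare lysines for cross-links. None of the 14 was called lower, and the share called higher was 42.9%, against 6.17% of all genes. The median log2 difference of the list was 0.44, and 12 of its 14 genes had a positive difference. P4ha2 rose from 28.5, 19.5, 28.9 and 22.3 CPM to 140.2, 91.6, 129 and 83.8 CPM (log2 difference 2.18, adjusted p = 1.9e-05). Plod2 rose from 74.2, 70.6, 61.7 and 55.3 CPM to 212, 159, 220.5 and 163 CPM (1.54, adjusted p = 1.9e-05). The groups of both genes were far apart. P4ha1 rose by 1.02, Leprel2, the gene of a prolyl 3-hydroxylase, by 1.03, Glt25d2, the gene of a collagen galactosyltransferase, by 0.95, and P4hb by 0.50 on the log2 scale.

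Genes for later steps were mixed. Serpinh1, the collagen chaperone of the endoplasmic reticulum, and Sparc, a collagen-binding matrix protein, were lower by log2 differences of -0.30 and -0.46 (adjusted p = 0.025 and 0.013), and they were the 2 called of 8 chaperone and secretion genes tested. Pcolce, which speeds the cleavage of the C-propeptide of fibrillar collagens, had 22.1, 17.9, 32.5 and 14.6 CPM in the controls and 5.65, 11.2, 9.30 and 7.34 CPM in the mutants (-1.36, adjusted p = 0.0054), the only call among 7 propeptide genes tested. Loxl2, a lysyl oxidase that forms cross-links, was higher by 1.03 and Timp3, an inhibitor of matrix metalloproteinases, by 0.54, and neither a collagen receptor (8 tested) nor a fibril partner (7 tested) was called. Over the 53 genes of the pathway lists that were tested, 8 were higher and 3 lower, against 6.17% and 5.29% of all genes. Of the exonic bases of Timp3, 21.3% overlap Syn3, which is read on the other strand, and whether the counting used strand is not given in the sources used here.

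**Figure D3:**
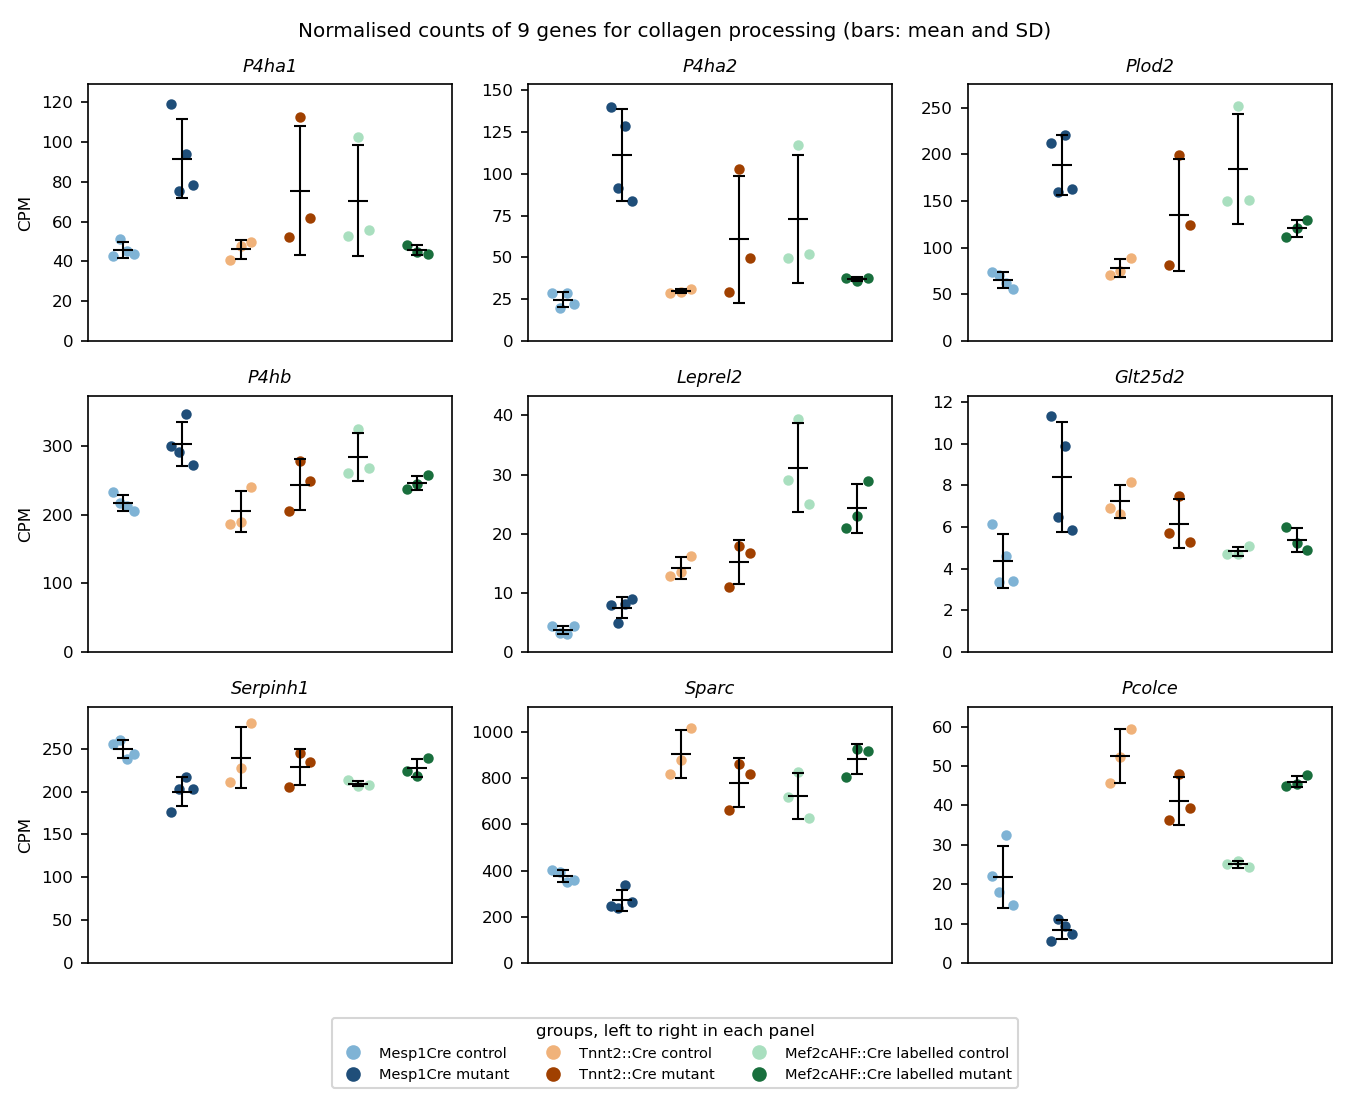
The panels show the CPM of 9 genes for collagen modification, folding and processing in every library (points), with group means and SD (bars); the y axes are linear and start at 0. The 4 Mesp1Cre mutants lie above the 4 controls for P4ha1, P4ha2, Plod2 and P4hb and below them for Serpinh1, Sparc and Pcolce, and replicate 2 of the Tnnt2::Cre mutants and of the Mef2cAHF::Cre labelled controls is the highest of its group for P4ha1, P4ha2 and Plod2.

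With Kmt2d deleted in cardiomyocytes, no collagen gene was called by edgeR. In the Tnnt2::Cre line 38 of the 39 genes were tested with edgeR, all but Col19a1, and 0 passed the threshold, against 0.293% of all 17045 genes. At an unadjusted p under 0.05 there were 13 genes, against 11.9% of all genes. DESeq2 called 4 genes (Col2a1, Col9a1 and Col9a3 lower, Col12a1 higher) and limma on the FPKM values none. The share of all genes called by DESeq2 is not given here. The groups did not overlap for 11 genes, 3 higher and 8 lower in the mutants, which is 7.89% and 21.1% of those tested, against 8.92% and 7.98% of all genes. The median log2 difference was -0.09.

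Col2a1 had 69.4, 49.8 and 67.7 CPM in the Tnnt2::Cre controls and 29.1, 29.1 and 40.5 CPM in the mutants. The groups did not overlap, and the log2 difference was -0.92 ± 0.17 (adjusted p = 0.086). The type IX chains Col9a1, Col9a2 and Col9a3, which decorate type II fibrils, were below the controls in every mutant as well. Their log2 differences were -0.85 ± 0.17, -1.10 ± 0.32 and -0.69 ± 0.13 (adjusted p = 0.11, 0.25 and 0.093). Col12a1, a FACIT chain of type I fibrils, had 40.0, 53.3 and 47.6 CPM in the controls and 66.3, 85.2 and 79.3 CPM in the mutants, all above the controls (0.72 ± 0.14, adjusted p = 0.096).

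The type I, III and VI chains of the Tnnt2::Cre mutants spread widely. Col1a1 had 140.1, 263 and 189 CPM in the controls and 96.9, 366 and 184 CPM in mutant replicates 1, 2 and 3 (0.13 ± 0.42). Col1a2 differed by 0.08 ± 0.29, Col3a1 by -0.09 ± 0.21, Col5a1 by -0.42 ± 0.15, Col5a2 by 0.12 ± 0.18 and Col11a1 by -0.07 ± 0.18. Col6a1, Col6a2 and Col6a3, the chains of type VI collagen, had log2 differences of 1.11 ± 0.46, 0.46 ± 0.32 and 0.49 ± 0.58, and mutant replicate 2 was the highest and mutant replicate 1 the lowest of the mutants for each. Col4a1 had 174, 176 and 198 CPM in the controls and 198, 279 and 248 CPM in the mutants (0.40 ± 0.14), and Col4a2 differed by 0.41 ± 0.14 with every mutant above every control. Col8a1 (0.53 ± 0.16), Col15a1 (-0.24 ± 0.34) and Col18a1 (-0.17 ± 0.12) did not pass the threshold either. Without mutant replicate 1, 6 genes were called, namely Col2a1, Col9a1 and Col9a3 lower and Col12a1, Col4a1 and Col4a2 higher. The share of all genes called in that fit is not given here, so the count cannot be read as particular to collagen genes. Without mutant replicate 2, Col9a1 was called. The summed level of the erythroid markers ranged from 18929 to 129969 CPM in the mutants and from 102204 to 157234 CPM in the controls, that of the cushion mesenchyme markers, 1 of 6 of which was lower, from 216 to 271 CPM and from 282 to 353 CPM, and that of the chondrogenic markers from 1.69 to 2.29 CPM and from 2.40 to 3.88 CPM. Their part in these values was not tested. None of the 59 pathway genes tested was called by edgeR in this line, and their median log2 difference was 0.01.

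In the right ventricle and outflow tract, 4 of the 39 genes passed the threshold, all higher in the libraries labelled mutant. This was 10.3% of them, against 2.85% of all 16920 genes in either direction, 1.81% called higher and 1.04% called lower. By the column names the same 4 genes were lower in the mutants, against 1.81% of all genes called lower under that reading. They were Col2a1, Col9a3, Col23a1 and Col4a6. At an unadjusted p under 0.05 there were 12 genes, against 17.9% of all genes, and the median log2 difference was 0.07 by the labels, with the sign turned by the column names. The groups did not overlap for 9 of the 39 genes, a share close to the 23.9% of all genes in either direction. Of the 9, 8 were higher and 1 was lower where the label says mutant. The share of all genes in each direction is not given here, so this split cannot be read as particular to collagen genes.

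Col9a3, a type IX chain, had 8.62, 8.12 and 8.32 CPM in the labelled controls and 15.3, 17.2 and 15.6 CPM in the labelled mutants, with a spread within each group far smaller than the gap (log2 difference 0.94 ± 0.10, adjusted p = 0.0027). Of its exonic bases, 6.07% overlap Tcfl5 on the other strand. Col23a1, a collagen that spans the cell membrane, had 14.0, 13.3 and 13.3 CPM in the labelled controls and 26.5, 22.1 and 24.8 CPM in the labelled mutants (0.85 ± 0.10, adjusted p = 0.0037). Col2a1 had 55.5, 56.8 and 83.9 CPM in the labelled controls and 136, 106 and 129 CPM in the labelled mutants (0.92 ± 0.16, adjusted p = 0.025), again without overlap. Col4a6 had 25.1, 19.8 and 20.5 CPM in the labelled controls and 33.9, 29.8 and 29.2 CPM in the labelled mutants (0.51 ± 0.11, adjusted p = 0.0485). By the column names these differences are -0.94, -0.85, -0.92 and -0.51. The call of Col23a1 stood in every alternative fit and every fit without 1 library, whereas those of Col9a3, Col2a1 and Col4a6 were lost in the fit over all 6 groups. The calls of Col2a1 and Col4a6 were also lost with limma on either FPKM scale and when any library labelled mutant was left out, and that of Col4a6 further with sex as a covariate and without labelled control replicate 2 or 3. Only 1 library of this line was male, a labelled control. In this line the sex term rests on that library alone, so the fit amounts to leaving it out and is no separate check.

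Several members had separate groups without passing the threshold in edgeR. Col12a1 had 164, 199 and 163 CPM in the labelled controls and 96.0, 123 and 143 CPM in the labelled mutants (-0.54 ± 0.14, adjusted p = 0.083), the only gene whose labelled mutants all lay lower. Col13a1, another membrane collagen, had 3.48, 1.27 and 3.74 CPM against 8.28, 6.01 and 5.91 CPM in the labelled mutants (1.25 ± 0.34, adjusted p = 0.092). Col4a5 (0.33 ± 0.10, adjusted p = 0.13), Col18a1 (0.21 ± 0.08, adjusted p = 0.18) and Col22a1 (1.31 ± 0.41, adjusted p = 0.13) were higher in each labelled mutant as well. Of these, DESeq2 called Col12a1 (adjusted p = 0.0034), Col13a1 (0.0042) and Col4a5 (0.0485), and edgeR called Col13a1 with sex as a covariate or without labelled control replicate 2, and Col4a5 without labelled control replicate 1. Reversing the genotypes by the column names turns each of these signs. Col22a1 had 6, 10 and 8 counts in the labelled controls. It passed the low-count filter through the labelled mutants alone, so only a difference in that direction could be called.

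The abundant type I, III and V chains did not pass the threshold between the Mef2cAHF::Cre groups. Col1a1 had 130.2, 223 and 130.1 CPM in the labelled controls and 177, 228 and 226 CPM in the labelled mutants (0.38 ± 0.20), whereas Col1a2 had 325, 467 and 254 CPM and then 222, 295 and 303 CPM (-0.35 ± 0.20). Labelled control replicate 2 was the highest of the controls for both. With sex as a covariate, or without that library, Col1a1 was called at log2 differences of 0.69 and 0.70 (adjusted p = 0.010 and 0.011) and Col5a1 at 0.51 in each (adjusted p = 0.015 in each). Because the sex term rests on 1 male library, these near-equal values are not separate checks. The ratio of Col1a1 to Col1a2 in FPKM did separate the groups. It was 0.740 to 0.949 in the labelled controls and 1.38 to 1.47 in the labelled mutants, and it was 1.78 to 2.00 in the Tnnt2::Cre controls and 1.39 to 2.29 in the Tnnt2::Cre mutants. The ratio was chosen after the values were seen and has no test, and 3 libraries against 3 cannot reach an exact two-sided permutation p under 0.10. Col3a1 (-0.12 ± 0.16), Col5a1 (0.31 ± 0.14), Col5a2 (0.17 ± 0.15), Col11a1 (-0.36 ± 0.15), Col4a1 (-0.17 ± 0.08) and Col4a2 (-0.23 ± 0.10) did not pass the threshold by the labels, nor did Col6a1 (-0.80 ± 0.43), Col6a2 (-0.26 ± 0.19), Col6a3 (0.07 ± 0.42), Col8a1 (-0.24 ± 0.19) and Col15a1 (-0.42 ± 0.22).

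Of the pathway genes in this tissue, 5 of 59 were called, 8.47% against 2.85% of all genes. By the labels Pcolce (0.88, adjusted p = 0.00071), Fmod, which encodes the fibril-binding fibromodulin (0.59, adjusted p = 0.026), and Ctsk, the collagen-degrading cathepsin K (1.08, adjusted p = 0.047), were higher, and Gp6, the collagen receptor of platelets (-2.11, adjusted p = 0.020), and Mmp9, a gelatinase (-2.79, adjusted p = 0.037), were lower. By the column names the first 3 were lower and the last 2 higher. Mmp9 was near the floor, with 0.477, 0.703 and 0.492 CPM in the labelled controls and 0.0711, 0.147 and 0.0271 CPM in the labelled mutants. It passed the low-count filter through the labelled controls alone, so only a difference in that direction could be called, and its size is uncertain. Pcolce had 25.0, 25.9 and 24.2 CPM in the labelled controls and 45.0, 45.5 and 47.6 CPM in the labelled mutants. P4ha1, P4ha2 and Plod2 were not called, with log2 differences of -0.62, -0.98 and -0.61 by the labels, and labelled control replicate 2 was the highest library for each. Chondrogenic markers were low, with a summed level of 1.66 to 2.49 CPM in the labelled controls and 2.49 to 3.38 CPM in the labelled mutants and 0 of 3 tested genes called. Erythroid markers summed to 7111 to 31624 CPM and 24519 to 46277 CPM, and the part of either in the collagen values was not tested.

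**Figure D4:**
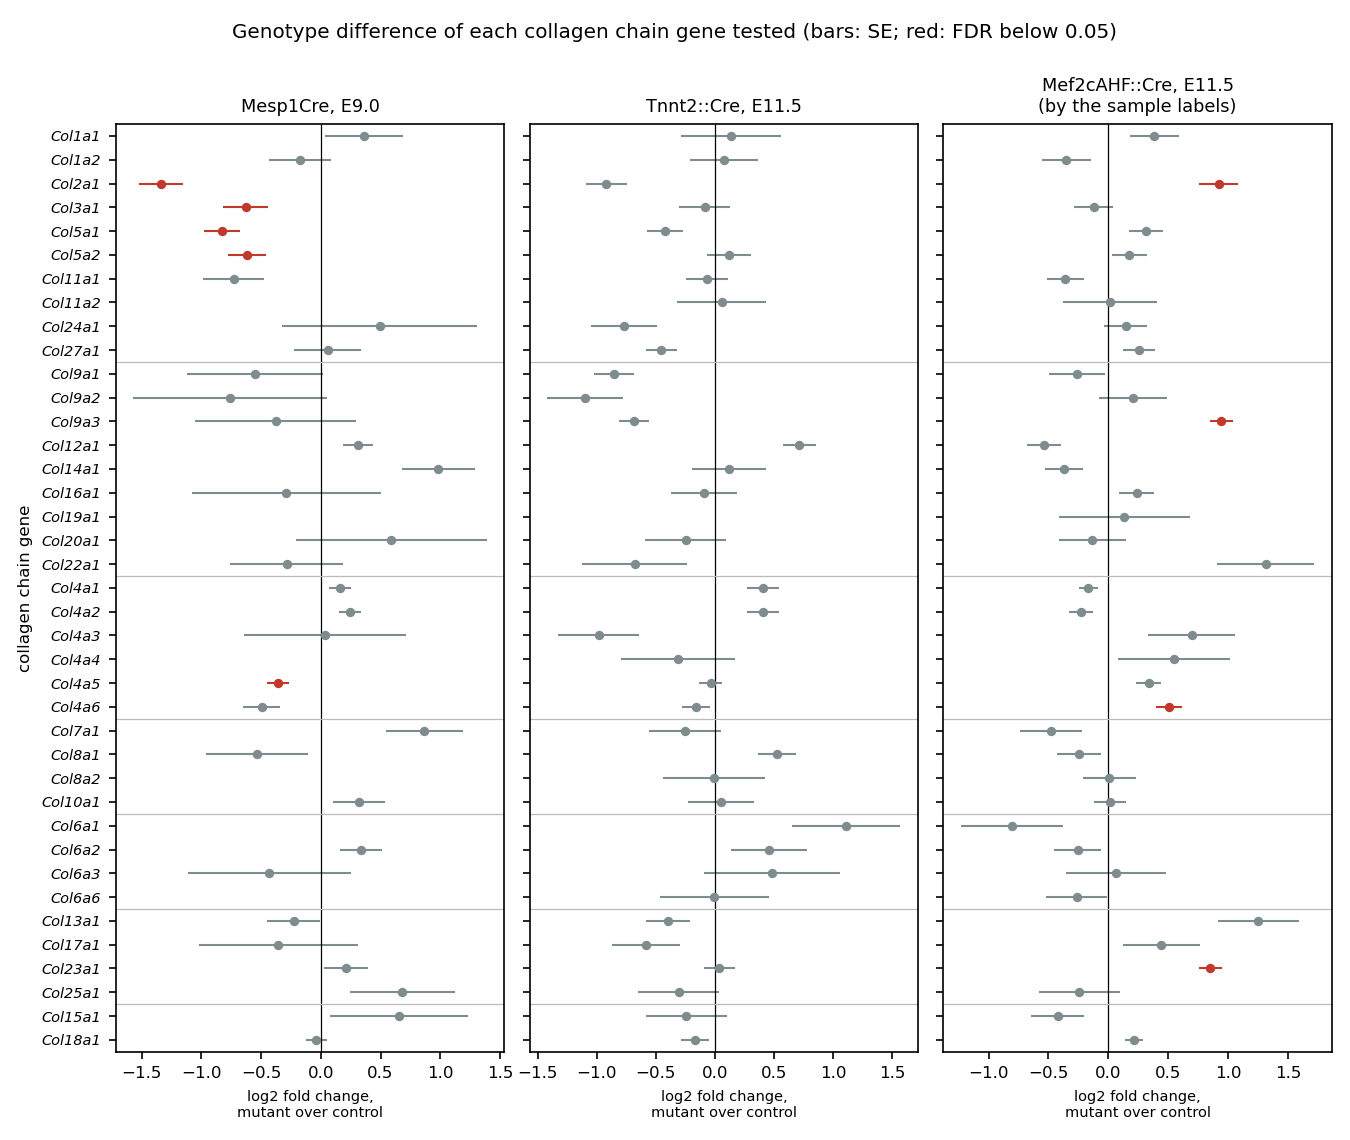
Points show the log2 fold change of each collagen chain gene tested, mutant over control (x axis), within each Cre line, with its SE (bars), and red marks an adjusted p under 0.05. The Mef2cAHF::Cre panel follows the sample labels, and under the column names it is mirrored at 0; Col2a1 is at -1.34, -0.92 and 0.92 in the 3 panels from left to right.

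Whether the effect of genotype differed between lines was tested as an interaction over all 20 libraries. Between Mesp1Cre and Tnnt2::Cre, 0 of the 39 genes differed by edgeR or by DESeq2, against 3.04% of all 18391 genes by edgeR, and 6 had an unadjusted p under 0.05, against 19.2% of all genes. For Col2a1 the genotype effects of these lines were -1.34 and -0.92. Between Mesp1Cre and Mef2cAHF::Cre by the labels, 9 genes differed, 23.1% against 11.3% of all genes. Col2a1 differed most by adjusted p, with a difference of -2.27 ± 0.30 on the log2 scale (adjusted p = 7.1e-05). Col5a1, Col5a2, Col4a5, Col4a6 and Col13a1 also had a lower effect in Mesp1Cre, and Col7a1, Col12a1 and Col14a1 a higher one. Under the column names 1 of the 39 differed between the same lines, Col23a1 (1.04, adjusted p = 0.025), against 1.63% of all genes, and 6 had an unadjusted p under 0.05, against 16.2% of all genes.

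Between Mef2cAHF::Cre and Tnnt2::Cre by the labels, 4 genes differed, 10.3% against 3.19% of all genes. These were Col2a1 (1.84 ± 0.32, adjusted p = 0.0025), Col12a1 (-1.25 ± 0.22, adjusted p = 0.0032), Col13a1 (1.65 ± 0.41, adjusted p = 0.029) and Col4a2 (-0.63 ± 0.17, adjusted p = 0.048). Under the column names 0 of the 39 differed by edgeR, with 3 at an unadjusted p under 0.05, and 0.0% of all genes were called, with 2.57% at an unadjusted p under 0.05. The 3 were Col23a1, Col13a1 and Col4a5. Under the column names their effects in Tnnt2::Cre lay above those in Mef2cAHF::Cre by 0.88, 0.85 and 0.30 on the log2 scale (unadjusted p of the same edgeR test = 0.00096, 0.0485 and 0.043). For Col2a1 and Col9a3 the effects were closer, at -0.92 and -0.69 in Tnnt2::Cre, and -0.92 and -0.94 in Mef2cAHF::Cre under the column names.

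Between the control whole hearts of the 2 stages, 6 of 10 fibrillar, 6 of 8 FACIT and 4 of 4 beaded filament genes were called. The beaded filament genes Col6a1 and Col6a6 passed the low-count filter through the E11.5 libraries alone, so they could only be called higher. Calls were fewer elsewhere, with 1 of 6 basement membrane, 1 of 4 membrane, 1 of 4 network and anchoring and 1 of 2 multiplexin genes. The network and anchoring gene called, Col8a2, also passed the filter through the E11.5 libraries alone and could only be called higher. The E11.5 Tnnt2::Cre controls were compared with the E9.0 Mesp1Cre controls. The Cre line and the sequencing group changed with the stage, so these cannot be told apart, and the same control libraries enter the comparisons of genotype above. Of 38 genes tested, 17 were higher and 3 lower at E11.5. The called share was 52.6% against 38.3% of all 16697 genes, the share called higher was 44.7% against 19.6%, and the share called lower was 7.89% against 18.8%. How many of all genes tested passed the filter through 1 stage alone is not given here. At an unadjusted p under 0.05 there were 23, against 46.8% of all genes. The median log2 difference was 0.75, against -0.0053 over all genes tested. Groups did not overlap for 20 genes higher and 3 lower, 52.6% and 7.89%, against 25.3% and 20.2% of all genes.

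The chains of the type I and type III fibril rose together. Col1a1 went from 17.0, 9.03, 27.7 and 11.2 CPM at E9.0 to 140.1, 263 and 189 CPM at E11.5 (3.57 ± 0.33, adjusted p = 1.5e-05). Col1a2 went from 26.1, 23.1, 36.1 and 17.5 CPM to 146, 243 and 192 CPM (2.88 ± 0.22, adjusted p = 4.5e-06), and Col3a1 from 73.3, 69.6, 76.9 and 54.0 CPM to 249, 356 and 333 CPM (2.16 ± 0.14, adjusted p = 1.5e-06). No library of either stage overlapped with the other for these genes. Of the type V chains, Col5a2 rose by 1.35 ± 0.12 (adjusted p = 1.1e-05), whereas Col5a1 differed by 0.20 ± 0.11 (adjusted p = 0.18). The ratio of Col5a1 to Col5a2 in FPKM was accordingly 2.45 to 3.84 in the E9.0 controls and 1.25 to 1.46 in the E11.5 controls, and it was 0.854 to 1.01 in the Tnnt2::Cre mutants.

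Col2a1 fell while the other fibrillar chains rose or did not pass the threshold. It went from 235, 321, 194 and 252 CPM to 69.4, 49.8 and 67.7 CPM (-2.04 ± 0.17, adjusted p = 7.5e-06). Of the type IX chains that sit on type II fibrils, Col9a1 and Col9a3 rose. Col9a1 had 3.64, 0.907, 4.67 and 0.650 CPM at E9.0 and 13.7, 15.8 and 14.9 CPM at E11.5 (2.54 ± 0.50, adjusted p = 0.0020), and Col9a3 rose by 3.34 ± 0.46 (adjusted p = 0.00020), whereas Col9a2 did not pass the threshold (0.91 ± 0.51, adjusted p = 0.18). Col11a1, the partner of type II in mixed fibrils, differed by 0.15 ± 0.20 and Col24a1, a minor fibrillar chain, rose by 1.52 ± 0.50 (adjusted p = 0.032), a call that was lost when any of the 3 E11.5 libraries was left out and with limma on log2(FPKM + 1).

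All 4 beaded filament genes were called higher, but the low-count filter limits what this count shows. Col6a1 and Col6a6 passed it through the E11.5 libraries alone, so only a rise could be called for them. Col6a3 would not have passed it on its E9.0 libraries alone. The full count can therefore not be read as a rise of the whole class. Col6a3 had 0.244 to 2.13 CPM at E9.0 and 7.50, 17.6 and 11.8 CPM at E11.5 (3.51 ± 0.57, adjusted p = 0.00062). Col6a2 rose by 0.80 ± 0.15 and Col6a1 by 1.83 ± 0.62 (adjusted p = 0.035). Col6a1 had 2 to 7 counts at E9.0, and its call was lost with DESeq2, with all genes of at least 1 count, with sex as a covariate and when any E11.5 library or E9.0 replicate 3 or 4 was left out. The feature counted for Col6a1 covered 413 bases, 9.40% of its 4393 annotated exonic bases, the only one under 50% of the 38 members with an annotated length. Col6a6 had 0 counts in each of the 4 E9.0 controls and 0.823, 1.30 and 0.866 CPM at E11.5, at least 8.41-fold higher when 3 counts are allowed in each E9.0 library (adjusted p = 0.00041). The median with that gene at its bound was unchanged at 0.75.

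The FACIT class held changes in both directions. Col16a1, which is found near fibrils and basement membranes, had 0.221, 1.24, 0.871 and 0.325 CPM at E9.0 and 8.20 to 10.9 CPM at E11.5 (3.84 ± 0.44, adjusted p = 5.9e-05), and Col14a1 rose by 1.28 ± 0.29. On its E9.0 libraries alone Col16a1 would not have passed the low-count filter. Col12a1 fell from 59.5, 74.7, 70.8 and 92.6 CPM to 40.0, 53.3 and 47.6 CPM (-0.70 ± 0.15, adjusted p = 0.0032), and Col22a1 fell by 1.90 ± 0.51 on the log2 scale. The feature counted for Col22a1 covered 1081 bases and had no annotated length to compare, and its call was lost without E11.5 replicate 2 or 3. On its E11.5 libraries alone Col22a1 would not have passed the filter. Of the other classes, Col8a2 (3.15 ± 0.76), Col23a1 (0.85 ± 0.15), Col4a5 (0.41 ± 0.07) and Col18a1 (0.27 ± 0.09) rose. Col8a2 had 0 to 15 counts at E9.0 and passed the filter through the E11.5 libraries alone, so only a rise could be called. The call of Col18a1 (adjusted p = 0.030) was lost with limma on either FPKM scale, with sex as a covariate and without E11.5 replicate 3 or E9.0 replicate 1, 3 or 4. The main basement membrane chains did not differ past the threshold, with log2 differences of -0.06 ± 0.08 for Col4a1 and -0.03 ± 0.10 for Col4a2, and Col8a1 (0.20 ± 0.29) and Col15a1 (0.84 ± 0.46) did not either. Their 95% intervals, taken from the SE and a normal distribution, ran from -0.23 to 0.10 for Col4a1 and from -0.23 to 0.17 for Col4a2.

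**Figure D5:**
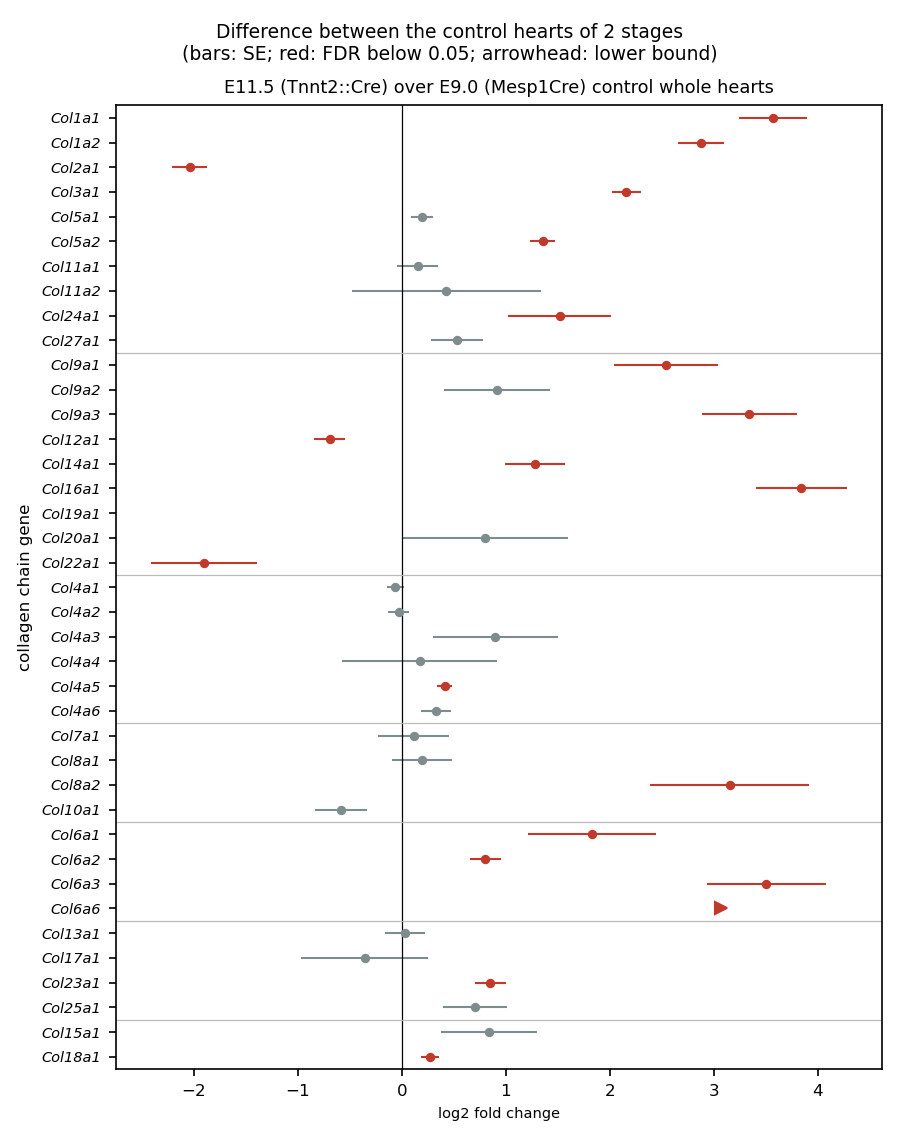
Points show the log2 fold change of each collagen chain gene in E11.5 Tnnt2::Cre control hearts over E9.0 Mesp1Cre control hearts (x axis), with its SE (bars), red marks an adjusted p under 0.05, and the arrowhead is the lower bound for Col6a6. Col1a1, Col1a2 and Col3a1 lie at 3.57, 2.88 and 2.16, Col2a1 at -2.04 and Col4a1 and Col4a2 near 0.

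Many genes of the collagen pathway lists were also higher at E11.5. Of 58 pathway genes tested, 32 were higher and 2 lower at E11.5, 58.6% against 38.3% of all genes. Of the fibril partners, 7 of 10 rose, led by Dcn (decorin, 5.07), Postn (periostin, 4.25), Lum (lumican, 4.05), Fmod (4.01) and Comp (3.60) on the log2 scale. Postn had 12.5, 7.01, 14.3 and 5.93 CPM at E9.0 and 168, 198 and 214 CPM at E11.5. Of the cross-linking enzymes 4 of 5 rose (Lox 5.04, Loxl1 2.91, Loxl2 0.97 and Loxl3 0.64). Lox was counted in only 1 of the 4 E9.0 controls, and its counted feature covers 33.6% of its exonic bases. Comp, Lox and the receptor gene Gp6 passed the low-count filter through the E11.5 libraries alone. Only a rise could be called for them, and its size is uncertain. Dcn would not have passed on its E9.0 libraries alone. The counts of pathway genes called higher include these genes.

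The remaining pathway groups are given by their calls. Of 14 modifying enzymes 4 rose, P4ha3 (4.36), Leprel2 (1.90), Crtap (1.04) and Glt25d2 (0.69), while P4ha1 (-0.02), P4ha2 (0.23) and Plod2 (0.23) did not pass the threshold. Of the propeptide genes, Adamts2 (2.71), Bmp1 (1.38) and Pcolce (1.24) rose and Tll1 fell by 0.72. The chaperone and secretion genes Fkbp14 (1.45), Sparc (1.23), Creb3l1 (0.90) and Fkbp10 (0.79) rose, and Tmem38b fell by 0.63. Collagen receptors rose in 5 of 8 (Gp6 3.68, Mrc2 1.67, Itga2 1.27, Itga1 0.67 and Ddr1 0.63), and genes of turnover in 5 of 6 (Mmp2 1.71, Ctsk 1.54, Timp1 1.20, Timp2 0.69 and Timp3 0.62). Gp6 had 0 to 0.569 CPM in the E9.0 controls and could only be called higher.

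Markers of other cells differed in the same comparison, in both directions. All 6 epicardial genes were higher at E11.5, with a summed level of 187 to 219.8 CPM against 22.6 to 67.9 CPM at E9.0. Of the cushion mesenchyme genes, 4 of 6 were higher and 1 lower (282 to 353 CPM against 51.0 to 92.0 CPM; Postn is in this list and in that of the fibril partners), 4 of 5 macrophage genes were higher (47.6 to 48.0 CPM against 9.81 to 18.6 CPM) and all 8 erythroid genes were higher. Smooth muscle genes were lower in 3 of 4 (1047 to 1994 CPM against 2591 to 3294 CPM), endothelial genes were higher in 3 and lower in 1 of 7, and cardiomyocyte genes were higher in 2 and lower in 3 of 8. Of the chondrogenic genes, 2 of 3 tested were higher (2.40 to 3.88 CPM against 0.554 to 1.69 CPM). The part of these cells in the collagen values was not tested.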

How the data were processed

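RNA-seq was available for 20 libraries of embryonic mouse heart in 6 groups. Per the labels, reads were aligned to mm9 with TopHat2 2.0.8b, as named in the submitters' processing notes, and the deposited table was computed with USeq 8.6.4. It holds raw counts per gene as deposited, FPKM values that the authors normalized for length and depth, and log2 variance-corrected values from the authors' comparison tool, which were not used. The study's methods and the labels name different library kits, and whether counting used strand is not given in the sources used here. The protocol text names E11.5 for all hearts, while the sample labels give E9.0 for Mesp1Cre, which was used. Deposited starts count from 0 and were converted to count from 1.

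Counts were tested with edgeR 4.0.16 (R 4.3.3; filterByExpr, TMM, quasi-likelihood F test, Benjamini-Hochberg adjustment over all genes tested, threshold 0.05) within each Cre line, between stages, and as interactions over all 20 libraries. SEs are the log2 difference divided by the root of F. Printed CPM use TMM factors over all 20 libraries, whereas fold changes come from each comparison's own fit. FPKM served for levels between genes. The test recovered known changes in simulated counts, where all genes had the same spread and only well-counted genes were changed. Genes with low counts or a wider spread were not tried in this way. Alternatives were DESeq2 1.42.0, limma 3.58.1 on log2(FPKM + 0.1) and log2(FPKM + 1), other filters and scalings, all 6 groups in 1 fit, hemoglobin genes left out, sex as a covariate, blocks by replicate number or by library code and leaving out each library. With a total of 21727258 to 45341870 counts per library, precision was limited for genes below about 1 CPM. No library pair of a group agreed within sampling noise.

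The members and lists were chosen with earlier results of these data known. Named were 15 major chains in every comparison, other called members whose mean log2 CPM was 1 or more (up to 8 each way), and up to 5 called genes of each pathway list in each direction. Other members are named for having separate groups or to complete a class, after their values were seen. Prolyl 3-hydroxylase and galactosyltransferase genes carry the table's older symbols (Leprel2, Glt25d2).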

Additional observations from a re-analysis of the deposited data

Results flagged for a closer look

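The genotype effect, as the log2 difference of mutant over control, differed between lines for several collagen genes by the interaction test of edgeR (adjusted p given) when the Mef2cAHF::Cre labels were used. For Mesp1Cre less Mef2cAHF::Cre the difference was -2.27 for Col2a1 (7.05e-05), -1.16 for Col5a1 (0.00322), -0.81 for Col5a2 (0.0421), -0.71 for Col4a5 (0.00145), -1.02 for Col4a6 (0.00243) and -1.50 for Col13a1 (0.0147). It was 0.83 for Col12a1 (0.0128), 1.33 for Col7a1 (0.0366) and 1.33 for Col14a1 (0.0214). For Mef2cAHF::Cre less Tnnt2::Cre it was 1.84 for Col2a1 (0.00251), -1.25 for Col12a1 (0.00316), -0.63 for Col4a2 (0.0483) and 1.65 for Col13a1 (0.0286). Under the column names none of these passed the threshold, and Col23a1 alone differed between Mesp1Cre and Mef2cAHF::Cre.

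In the Mesp1Cre groups of 4, a library stood apart from the other 3 in 7 of 78 sets of a gene and a group. Chance gives about 1 in 20 where values follow a normal distribution. The flagged sets of Col6a6, Col8a2, Col11a2 and Col19a1 held few or no counts in most libraries, so that rate does not hold for them. Among the mutants these were Col1a1 at 33.2 CPM, Col4a6 at 13.3 CPM, Col6a6 at 1.07 CPM, Col8a2 at 0.422 CPM and Col11a2 at 1.55 CPM. Among the controls they were Col8a1 at 1.99 CPM and Col19a1 at 0.158 CPM. Col1a1 and Col4a6 are members whose values stand in the comparison of genotypes, and neither was called there.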

How the results depend on the processing

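Counts of collagen genes called depended on the tool and the libraries. The shares of all genes called by the other tools, filters and sets of libraries are not given here. Those counts therefore cannot be read as particular to collagen genes. For Mesp1Cre (5 called), DESeq2 called 8, the fit of all 6 groups 10 and the fit with sex as a covariate 2, and leaving out 1 library gave 2 to 6. For Mef2cAHF::Cre by the labels (4 called), DESeq2 called 7, the test of all genes with at least 1 count 7, limma on either log2 FPKM scale 2 and the fit of all 6 groups 1, and leaving out 1 library gave 2 to 6. For Tnnt2::Cre (0 called), DESeq2 called 4 and the test of all genes with at least 1 count 2, and leaving out 1 library gave 0 to 6. Between stages (20 called), requiring 10 counts in every library left 13 of 26 genes tested, fewer genes than before, and leaving out 1 library gave 16 to 21. By the column names, 1 gene differed between Mesp1Cre and Mef2cAHF::Cre and 0 between Mef2cAHF::Cre and Tnnt2::Cre, where DESeq2 by the labels called 7. Except for the fits with fewer libraries or genes and the exchanged labels, the cause was not tested.

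The libraries were not treated as paired by replicate number in the main fits. Same-numbered libraries deviated together with correlations of -0.05 to 0.21, which cannot settle whether they shared a litter or batch. Controls and mutants of Mesp1Cre also share codes in their library names, the same for replicates 1 and 2 and others for 3 and 4, and the labels do not say what these mark. With the code as a block 4 Mesp1Cre genes were called, without Col3a1. With the replicate block, edgeR called 3 Mesp1Cre (without Col3a1 and Col4a5), 4 Mef2cAHF::Cre and 0 Tnnt2::Cre genes, and Col1a1 in Tnnt2::Cre turned to -0.028.

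For the 76 differences of named genes, 35 values under other settings had the opposite sign, none of them past the threshold, and these belonged to 14 of the differences. Another 1106 values kept sign and side of the threshold, 64 fell below it and 14 passed it. In Mesp1Cre, Col18a1 was 0.12 and 0.11 on the FPKM scales and Col1a2 0.070 with sex as a covariate. In Mef2cAHF::Cre by the labels, Col6a2 was 0.045 and Col3a1 0.064 with sex as a covariate. In Tnnt2::Cre, on the FPKM scales with 0.1 and 1 added, Col3a1 was 0.0032 and 0.0045 and Col11a1 0.050 and 0.036. Between stages Col4a2 was 0.0053 with 10 counts in every library and 0.00021 in the fit of all 6 groups. The FPKM scale moved the median of all genes with 0.1 added by 0.148 (Mesp1Cre), -0.131 (Mef2cAHF::Cre) and 0.111 (Tnnt2::Cre). Without 1 library other genes turned too, with these ranges over the libraries left out. For Mesp1Cre these were Col18a1 from -0.088 to 0.020, Col1a2 from -0.45 to 0.036 and Col6a3 from -0.76 to 0.18. For the Mef2cAHF::Cre labels these were Col3a1 from -0.28 to 0.068, Col6a2 from -0.43 to 0.049 and Col6a3 from -0.31 to 0.71. For Tnnt2::Cre these were Col11a1 from -0.22 to 0.11, Col1a1 from -0.49 to 0.49, Col1a2 from -0.30 to 0.32, Col3a1 from -0.32 to 0.099, Col5a2 from -0.11 to 0.30 and Col6a3 from -0.55 to 0.90. For the stages these were Col11a1 from -0.0081 to 0.32 and Col4a2 from -0.091 to 0.060.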
